A study of Mus musculus with 12 samples.

Results

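The transcripts of 7 transcription factor genes were followed through terminal erythroid differentiation in mouse bone marrow. They were Spi1, which encodes PU.1, the C/EBP genes Cebpa, Cebpb, Cebpd and Cebpe, and the paired zinc finger repressors Gfi1 and Gfi1b. The genes were chosen by name, and all 7 were found among the 29838 genes of the deposited expression table. Erythroblasts were sorted from the bone marrow of wild-type male C57BL/6 mice aged 8 weeks, with no treatment in any group. Proerythroblasts (Pro) were taken as CD44 high, Ter119 low cells, and basophilic (Baso), polychromatic (Poly) and orthochromatic (Ortho) erythroblasts by CD44 staining and cell size among Ter119-positive cells. Cells had first been depleted of CD45-positive cells on magnetic columns, and the sort took live cells negative for CD45, CD11b and GR1, which mark leukocytes. Each of the 4 stages had 3 libraries, and the labels do not say whether these came from separate animals, so that p-values measure only the spread between libraries. Ortho replicates 2 and 3 are identified as Ortho by their titles, while their cell type field says only erythroblast.

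PU.1 is an ETS family factor that drives macrophage, neutrophil and B cell fates. In erythroid progenitors PU.1 and GATA1 bind each other and each restrains the other's targets. C/EBPα starts the granulocyte and monocyte programme, C/EBPε is needed for the late neutrophil granules, and C/EBPβ and C/EBPδ act in myeloid maturation and in inflammation. GFI1 and GFI1B share an N-terminal SNAG domain that recruits the histone demethylase LSD1, and zinc fingers that bind DNA with an AATC core. GFI1 is best known from neutrophils and lymphocytes, and GFI1B from erythroid cells and megakaryocytes.

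Expression is given as FPKM, a fragment count divided by transcript length and library size, as calculated by the authors. The depth behind these values is unknown, because low values showed no steps of whole fragments. The summed FPKM of a library lay between 505624 and 691033, and 11964 to 12297 genes of each library reached 1 FPKM. Hemoglobin genes held 6.98% to 10.6% of the sum in Pro and 47.2% to 52.6% in Ortho. FPKM is a share of the library, so the part taken by hemoglobin bears on the value of every other gene. Stages were compared by limma on log2(FPKM + 1) over 12994 genes that reached 1 FPKM in 3 or more libraries, and a gene passed the test at a Benjamini-Hochberg adjusted p under 0.05. All 7 members were among the genes tested. Against Pro, the median log2 change over the tested genes was -0.23 (Baso), -0.20 (Poly) and -0.42 (Ortho). In Ortho it moved to -0.72 with library sums made equal, and to -0.03 with hemoglobin genes left out or with each library centred on its median. The share of higher genes among those past the test in Ortho was 29.9%, and 18.9%, 49.7% and 49.3% under these 3 scalings. In Baso it was 26.2%, and 14.8% to 56.5% under them, and in Poly 35.3% and 26.05% to 56.4%. From Baso to Poly it was 53.3%, and 35.0% to 64.5%, and from Poly to Ortho 16.9% and 7.68% to 42.5%. Erythroblast markers were present at every stage. Hbb-bs, a β-globin gene, had a mean FPKM of 9970 in Pro and 86860 in Ortho. The progenitor gene Kit, which encodes the stem cell factor receptor, averaged 17.8 FPKM in Pro, 13.7 (Baso), 16.7 (Poly) and 14.5 (Ortho).

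Spi1, the 4 C/EBP genes and Gfi1 were all higher in Poly than in Pro, and Gfi1b was lower. In Ortho compared with Pro, the log2 fold change of Gfi1b was -2.91, and those of the other 6 lay between 0.37 and 0.95, with Gfi1, at 0.37, not past the test. In Baso compared with Pro, 4 of the 7 members were past the test upward and 1 downward, where 14.9% of all genes tested were higher and 42.1% lower. In Poly compared with Pro, 6 members were higher and 1 was lower, beside 23.3% and 42.7% of all genes. In Ortho compared with Pro, 5 were higher and 1 was lower, beside 22.7% and 53.2% of all genes. These comparisons share the Pro libraries. From Baso to Poly, 3 members rose and none fell, beside 6.58% of all genes higher and 5.77% lower, and from Poly to Ortho none rose and 2 fell, beside 4.43% and 21.7%. At an unadjusted limma p under 0.05, the members past it were 5 higher and 0 lower from Baso to Poly, beside 16.9% and 12.4% of all genes, and 2 higher and 3 lower from Poly to Ortho, beside 7.47% and 27.2%. Same-numbered Baso, Poly and Ortho libraries deviated together, and a fit of these 3 stages blocked by replicate number gave 5 members higher from Baso to Poly, beside 12.6% of all genes higher and 9.44% lower in that fit. From Poly to Ortho it gave 2 higher and 3 lower, beside 6.31% and 24.5%.

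**Figure D1:**
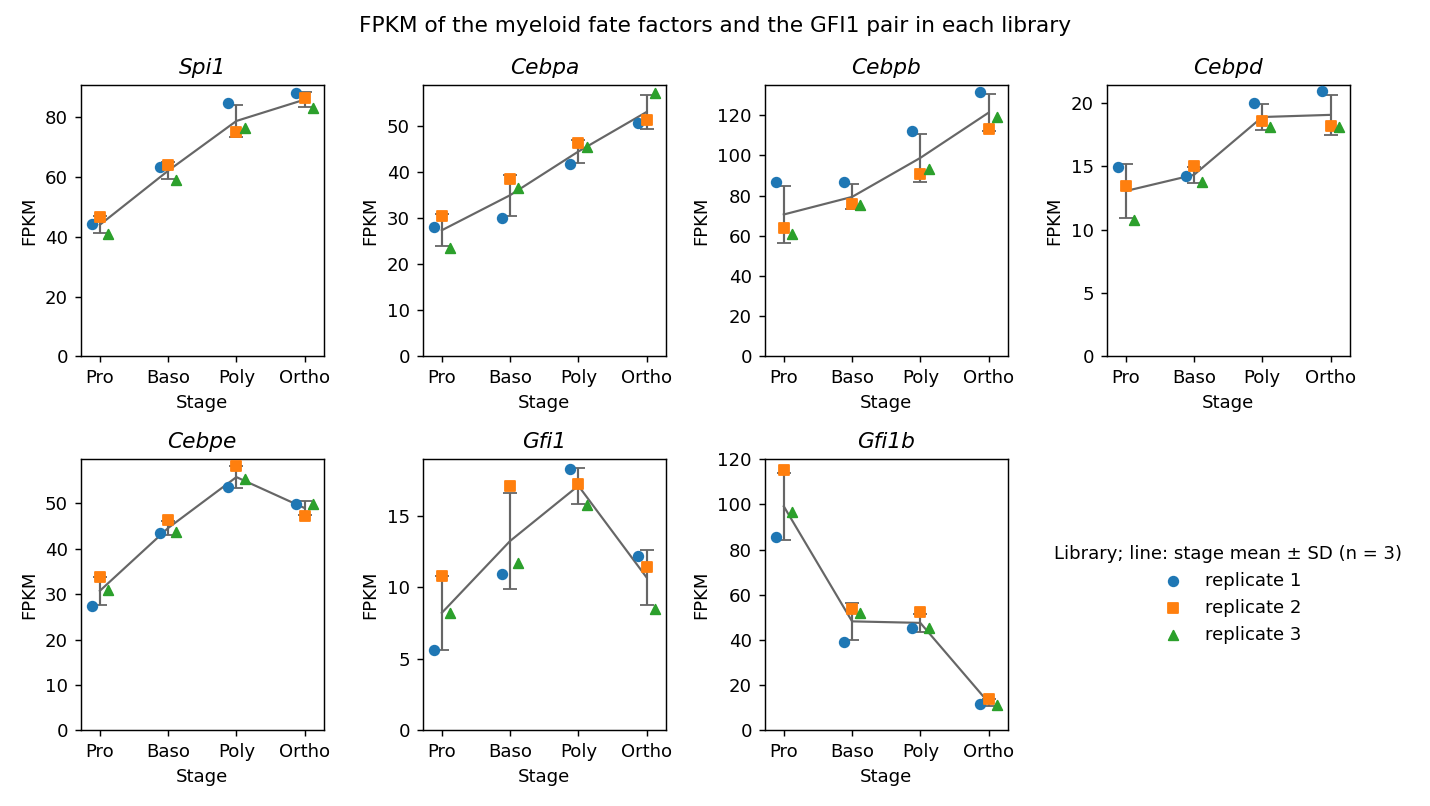
FPKM (vertical axis, from 0) of each member gene in the 12 libraries, by stage. Points are libraries, and the line joins stage means with their SD (n = 3). Spi1, Cebpa, Cebpb and Cebpd have their highest mean in Ortho, Cebpe and Gfi1 in Poly, and Gfi1b falls from 99.2 in Pro to 12.3 in Ortho.

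Spi1 (ENSMUSG00000002111) lies on chromosome 2 of mm10 from 91082390 to 91115756 on the plus strand, with 5 exons. Its FPKM was 44.3, 46.7 and 41.1 in the Pro libraries and 63.3, 64.1 and 59.0 in Baso. It was 84.9, 75.0 and 76.5 in Poly, and 88.1, 86.6 and 83.2 in Ortho. Every Baso library was above every Pro library and every Poly library above every Baso library, whereas Poly and Ortho overlapped. Its log2 change from Pro was 0.49 in Baso (SE 0.07, adjusted p = 0.00017), 0.82 in Poly (adjusted p = 2.51e-06) and 0.95 in Ortho (adjusted p = 3.57e-07). The step from Baso to Poly was 0.34 (adjusted p = 0.0159) and was no longer past the test without Baso replicate 3 or without Poly replicate 1. The step from Poly to Ortho, 0.13, was not past the test (adjusted p = 0.262, 95% interval -0.03 to 0.28). It was past the test at 0.27 with median centring and without the hemoglobin genes, and -0.061 with equal library sums. Spi1 stood above 85.3% of tested genes by mean FPKM in Pro, and above 95.3% in Ortho.

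Cebpa (ENSMUSG00000034957, chromosome 7, 35119293 to 35121928, plus strand) rose along the same order of stages. Its FPKM was 28.1, 30.5 and 23.6 in Pro, 30.01, 38.5 and 36.5 in Baso, 41.7, 46.2 and 45.5 in Poly, and 50.6, 51.3 and 57.2 in Ortho. Only Pro and Baso overlapped. Against Pro its log2 change was 0.34 in Baso (adjusted p = 0.0207), 0.69 in Poly (adjusted p = 0.000224) and 0.93 in Ortho (SE 0.11, adjusted p = 1.28e-05). The value in Baso lost the call in 6 of 21 alternatives, among them leaving out Pro replicate 3 (0.24), Baso replicate 2 (0.27) or Baso replicate 3 (0.31). Neither the step from Baso to Poly (0.34, adjusted p = 0.0654) nor that from Poly to Ortho (0.25, adjusted p = 0.136) was past the test. Both were past it in the blocked fit (adjusted p = 0.0173 and 0.0355). The first was also past it without Pro replicate 3 (adjusted p = 0.0461). The second was past it with hemoglobin genes left out (0.39, adjusted p = 0.0277) and with median centring (0.40, adjusted p = 0.0249). It was also past it with only the 2 stages in the model (adjusted p = 0.0401).

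Cebpb (ENSMUSG00000056501, chromosome 2, 167688915 to 167690418, plus strand) has a single exon and was the most abundant C/EBP transcript at every stage. Its FPKM was 86.8, 64.1 and 61.0 in Pro and 86.6, 76.0 and 75.5 in Baso, and the stages overlapped. It was 112, 90.8 and 93.2 in Poly, and 131, 113 and 119 in Ortho. Replicate 1 was the highest library of each stage, and all Ortho libraries were above all Poly libraries. Its log2 change from Pro was 0.18 in Baso, not past the test (adjusted p = 0.26, 95% interval -0.11 to 0.47), 0.49 in Poly (adjusted p = 0.00642) and 0.79 in Ortho (SE 0.13, adjusted p = 0.000196). The value in Baso was past the test without Pro replicate 1 (0.34), without the hemoglobin genes (0.49) and with median centring (0.48), and the value in Poly was 0.31 and not past it with equal library sums (adjusted p = 0.0815). The steps from Baso to Poly (0.31) and from Poly to Ortho (0.30) were not past the test (adjusted p = 0.145 and 0.132), and were past it in the blocked fit (adjusted p = 0.00703 and 0.00259). Of the 1504 exonic bases of Cebpb, 20.7% also lie in exons of Tmem189 on the other strand. Tmem189 had a mean FPKM of 13.0 in Pro and 17.7 in Ortho, and the counting is not stated to use strand, so fragments of this stretch cannot be assigned to either gene.

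Cebpd (ENSMUSG00000071637, chromosome 16, 15887286 to 15891031, plus strand) had the lowest mean FPKM of the 4 C/EBP members at every stage, and its highest stage mean was 1.46 times its lowest, the smallest such ratio of the 7 members. Its FPKM was 14.96, 13.4 and 10.8 in Pro, 14.2, 15.02 and 13.7 in Baso, 20.01, 18.6 and 18.1 in Poly, and 20.9, 18.2 and 18.1 in Ortho. Pro and Baso overlapped, as did Poly and Ortho, and the later pair of stages was above the earlier pair in every library. The log2 fold change was 0.52 in Ortho compared with Pro (SE 0.11, adjusted p = 0.000958), and 0.17 and not past the test with equal library sums (adjusted p = 0.197). In Baso it was 0.14 (adjusted p = 0.303, 95% interval -0.10 to 0.37), but 0.43 and past the test without the hemoglobin genes or with median centring, and -0.032 with equal library sums. The step from Baso to Poly was past the test (0.38, adjusted p = 0.0454) but not in 9 of 12 refits lacking a single library, with values of 0.34 to 0.41. From Poly to Ortho the log2 fold change was 0.01, with a 95% interval from -0.23 to 0.25. Of the 3746 exonic bases of Cebpd, 15% are shared with Spidr on the other strand, which had a mean FPKM of 9.09 in Pro and 5.05 in Ortho.

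Cebpe (ENSMUSG00000052435, chromosome 14, 54710360 to 54712174, minus strand) peaked in Poly. Its FPKM was 27.5, 33.8 and 31.0 in Pro, 43.5, 46.4 and 43.8 in Baso, 53.6, 58.3 and 55.5 in Poly, and 49.9, 47.2 and 49.9 in Ortho. No neighbouring stages overlapped in the order Pro, Baso, Ortho, Poly. Against Pro its log2 change was 0.53 in Baso (SE 0.08, adjusted p = 0.000166), 0.84 in Poly (adjusted p = 3.56e-06) and 0.66 in Ortho (adjusted p = 1.25e-05). The step from Baso to Poly was 0.32 (adjusted p = 0.0267), and lost the call in each of the 6 fits that left out a Baso or a Poly library. From Poly to Ortho the log2 fold change was -0.18 and not past the test (adjusted p = 0.115). It was past it in the blocked fit (adjusted p = 0.0465), with equal library sums (-0.37, adjusted p = 0.00249) and without Pro replicate 1 (adjusted p = 0.0485).

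**Figure D2:**
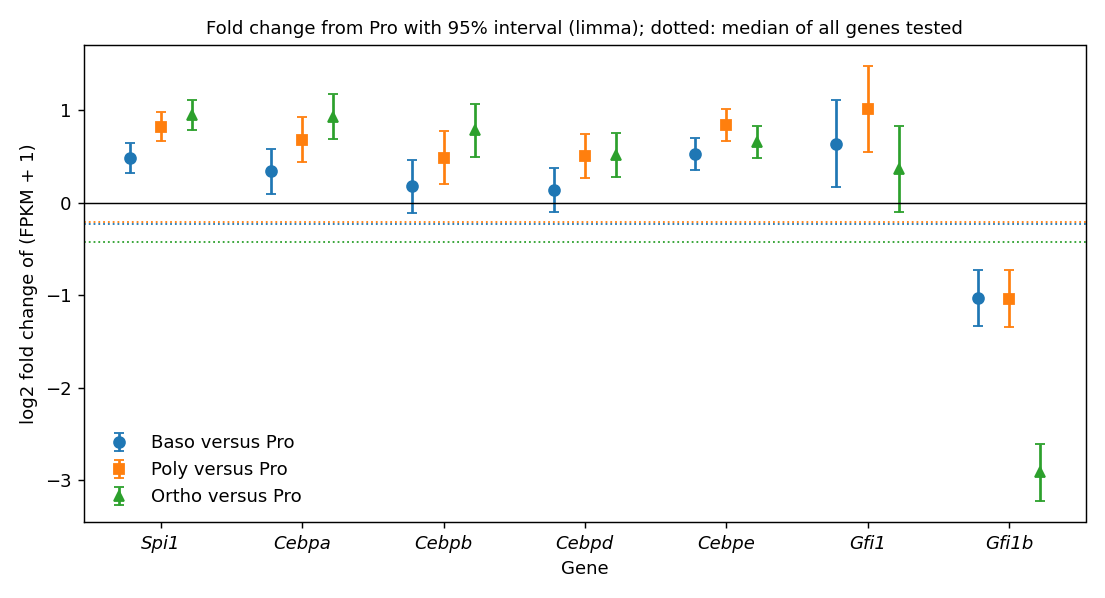
Log2 fold change of (FPKM + 1) from Pro (vertical axis) for each member gene in Baso, Poly and Ortho, with 95% intervals from limma. Dotted lines are the medians of all genes tested, -0.23, -0.20 and -0.42, and Gfi1b alone of the 7 lies below them, at -2.91 in Ortho.

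Gfi1 (ENSMUSG00000029275, chromosome 5, 107716657 to 107726036, minus strand) was the least abundant member at every stage. Its FPKM was 5.62, 10.8 and 8.22 in Pro, 10.9, 17.0 and 11.7 in Baso, 18.3, 17.2 and 15.8 in Poly, and 12.2, 11.4 and 8.48 in Ortho. In the order of the means, Pro, Ortho, Baso and Poly, each stage overlapped with the next. Against Pro its log2 change was 0.64 in Baso (SE 0.21, adjusted p = 0.0226) and 1.01 in Poly (adjusted p = 0.00137). The value in Baso lost the call in 5 of 21 alternatives, without Pro replicate 1 (0.42) or Baso replicate 2 (0.46), with equal library sums (0.48), with no filter and with only the 2 stages in the model. In Ortho it was 0.37 and not past the test (adjusted p = 0.135, 95% interval -0.10 to 0.83). It was 0.57 and past the test without Pro replicate 2, 0.76 with median centring and 0.81 without the hemoglobin genes. Gfi1 fell from Poly to Ortho (-0.64, adjusted p = 0.0438), and every Ortho library was below every Poly library. That call was lost in 7 of 12 refits lacking a single library, with values of -0.70 to -0.50 among them, and also without the hemoglobin genes (-0.51, adjusted p = 0.0939), with median centring (-0.49, adjusted p = 0.114) and with no filter (adjusted p = 0.138).

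Gfi1b (ENSMUSG00000026815) lies on chromosome 2 from 28609450 to 28621982 on the minus strand, with 7 exons. Its FPKM was 85.6, 115 and 96.8 in Pro, and 39.0, 53.7 and 52.0 in Baso. It was 45.1, 52.3 and 45.2 in Poly, and 11.5, 13.9 and 11.4 in Ortho. Gfi1b thus fell in 2 steps that were separated in every library, from Pro to Baso and from Poly to Ortho, with a level between them. The first step was a log2 fold change of -1.03 (SE 0.14, adjusted p = 9.05e-05) and the second -1.87 (adjusted p = 1.18e-06). From Baso to Poly it was -0.01 (adjusted p = 0.974, 95% interval -0.32 to 0.30), a value whose sign changed with the scaling and when single libraries were left out. The fall from Pro to Ortho, -2.91 (adjusted p = 1.52e-08), kept its call in all 21 alternatives. Gfi1b was the only member past both the test and a 2-fold change in Ortho compared with Pro, as were 23.8% of all genes in the downward direction. The mean FPKM of Gfi1b was 8.09 times as high in Pro as in Ortho.

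The upstream sequence of Gfi1b is shown because this gene moved against the rest of the set. Upstream windows of 250 bases were read from RefSeq on GRCm38.p6, which has the coordinates of mm10, and 4 of the 7 members matched the table (Cebpa, Cebpb, Gfi1 and Gfi1b). The window of Gfi1b is chr2:28621983-28622232 on the minus strand, ends at the base before the transcription start and holds no annotated exon. It was searched on both strands for GATAAG, a site of GATA factors, and for AATC, the core bound by GFI1 and GFI1B, whose matches do not overlap here. Capitals mark the matches, and GATT is AATC on the other strand.
Gfi1b upstream: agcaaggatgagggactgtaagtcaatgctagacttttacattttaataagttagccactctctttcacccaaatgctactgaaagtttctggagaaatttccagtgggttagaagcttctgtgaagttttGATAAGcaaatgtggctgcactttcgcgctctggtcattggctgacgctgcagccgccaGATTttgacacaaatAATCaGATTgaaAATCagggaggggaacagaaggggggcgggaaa
It holds 1 match to GATAAG, 119 bases before the start, and 4 matches to AATC, all within the last 60 bases. Of the 32851 windows of all genes, 6.55% hold GATAAG at least once and 7.04% hold AATC at least 4 times. The windows of Cebpa and Cebpb and both start sites of Gfi1 hold no GATAAG, and AATC occurs once in 1 Gfi1 window. G and C made up 44.4% of the Gfi1b window, 66.4% (Cebpa), 81.6% (Cebpb), and 59.2% and 57.6% (Gfi1). The shares of all windows were not matched for this content. The PU.1 site GAGGAA, found in 23.2% of all windows, was in none of these 5. The C/EBP site TTGCNNAA, found in 9.56% of all windows, was in 1 of the Gfi1 windows. These are matches of letters, and no binding was measured.

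Ratios of the FPKM of 2 genes within a library do not depend on how that library was scaled. The tests and log2 changes of the ratios used FPKM + 1 for both genes, which leaves some dependence on scaling. The ratio of Gfi1b to Gfi1 FPKM was 15.2, 10.7 and 11.8 in the Pro libraries and 0.948, 1.22 and 1.34 in Ortho. It was 3.72 ± 0.659 in Baso and 2.79 ± 0.29 in Poly (SD, n = 3). The erythroid member of the pair thus exceeded Gfi1 by over 10 times in every Pro library, and they were about level in Ortho. The ratio differed between stages in an exact permutation test that took all 15400 ways to divide the libraries (two-sided p = 6.49e-05, the smallest possible, adjusted p = 9.74e-05 over 3 ratios). On the log2 scale the change from Pro to Ortho was -3.28, and leaving out any library gave -3.38 to -3.15. The ratio of Spi1 to Gata1, which encodes the erythroid factor that PU.1 opposes, was 0.312, 0.383 and 0.323 in Pro and 3.16, 2.72 and 2.51 in Ortho. It was 0.487 ± 0.0532 in Baso and 0.788 ± 0.0749 in Poly. The Spi1 transcript was below Gata1 in every Pro, Baso and Poly library and above it in every Ortho library, and no stages overlapped (exact permutation test, p = 6.49e-05, adjusted p = 9.74e-05). Gata1 itself had a mean FPKM of 131 in Pro and 30.9 in Ortho, so both genes of the ratio moved. The ratio of Cebpb to Cebpa was 2.59 ± 0.496 in Pro and 2.3 ± 0.266 in Ortho, and the test over all libraries did not pass (exact permutation test, p = 0.749). Replicate 1 had the highest Cebpb to Cebpa ratio at every stage. With Baso, Poly and Ortho exchanged only within a replicate number, this ratio was higher in Baso than in Poly in 3 of 3 pairs and higher in Poly than in Ortho in 1 of 3 (exact permutation test over the 3 stages, p = 0.694). The same paired exact permutation test gave p = 0.0278, the smallest that its 36 arrangements allow, for each of the other ratios (adjusted p = 0.0417).

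**Figure D3:**
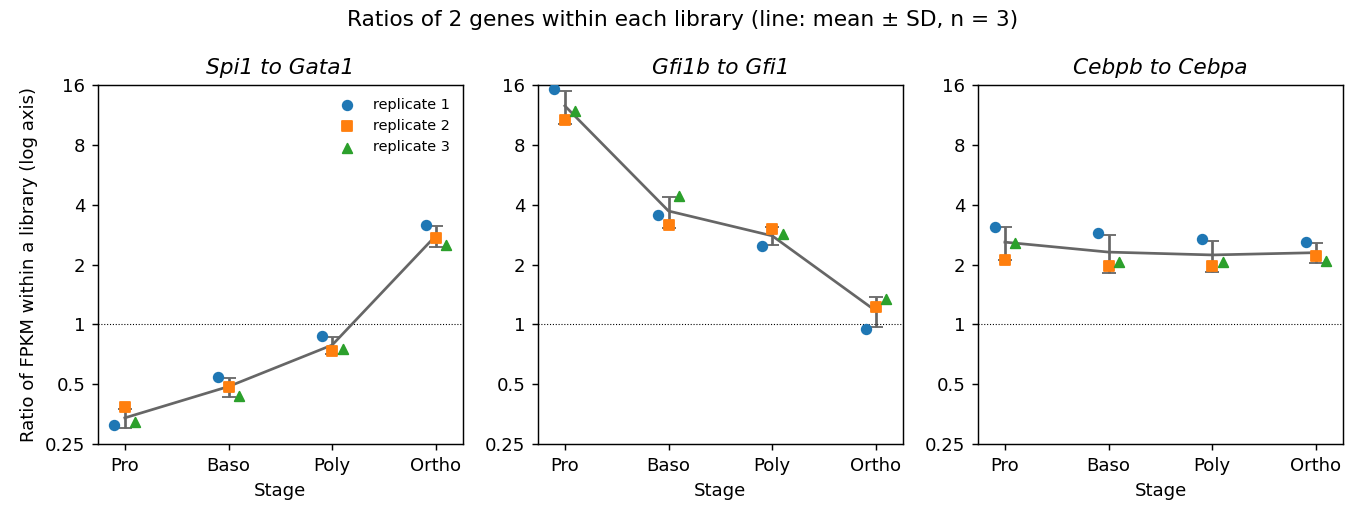
Ratio of the FPKM of 2 genes within each library (vertical log axis) by stage. Points are libraries and the line joins means with SD (n = 3). Spi1 to Gata1 goes from 0.339 in Pro to 2.8 in Ortho, Gfi1b to Gfi1 from 12.6 to 1.17, and Cebpb to Cebpa stays between 2.24 and 2.59.

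Markers of leukocytes were also higher in the later stages, although the sort excluded cells positive for CD45, CD11b or GR1. All 15 neutrophil markers were tested, and 14 were past the test upward in Baso, 15 in Poly and 14 in Ortho compared with Pro, whereas Cebpb and Cebpd were not past it in Baso nor Gfi1 in Ortho. In Ortho the markers had a median log2 fold change of 0.99, beside -0.42 for all genes. The summed FPKM of the 15 was 8060 to 9965 in the Pro libraries, 13664 to 16001 in Baso, 17661 to 20848 in Poly and 15861 to 19585 in Ortho. S100a9 and S100a8, the calprotectin subunits of neutrophils, had mean FPKM of 2633 and 1850 in Pro and 6101 and 4005 in Ortho. The list also holds Ltf, Camp, Ngp and Lcn2, late granule genes that C/EBPε activates. Of 12 monocyte and macrophage markers, 7 were tested and 5 were higher in Ortho, led by Ccr2, a monocyte chemokine receptor (log2 fold change 1.77, adjusted p = 3.09e-06), and Cd68 (1.19). Their summed FPKM was 236 to 298 in Pro and 490 to 573 in Ortho. C1qb, C1qc, Mrc1 and Marco, which mark resident macrophages, were below 1 in every library, and C1qa reached 1.09 in Baso replicate 3. Adgre1 and Vcam1, also of this list, were above 1 in every library. Adgre1 had 3.25 to 4.90 FPKM in Pro and 6.65 to 8.81 in Ortho, and Vcam1 2.33 to 3.52 and 1.78 to 2.92. All 10 B cell markers were higher, with sums of 185 to 269 in Pro and 518 to 539 in Ortho. The T cell receptor genes Cd3e, Cd3d and Cd3g were below 1 in every library, whereas Lck, also listed for T and NK cells, had 2.01 to 6.60 FPKM. Of 8 markers of megakaryocytes, which also use Gfi1b, 6 were lower and 1 was higher in Ortho, beside 53.2% of all genes lower, with a sum of 74.4 to 134 in Pro and 40.8 to 49.6 in Ortho. In these bulk libraries, more cells of a type and more RNA per cell cannot be told apart.

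Set against the summed neutrophil markers of the same library, the 6 myeloid members were not higher in Ortho than in Pro, with mean levels 0.657 to 0.968 times those of Pro. Per 1000 FPKM of neutrophil markers, Spi1 stood at 4.13 to 5.50 in Pro, 3.92 to 4.69 in Baso, 3.76 to 4.25 in Poly and 4.38 to 5.46 in Ortho. Cebpa stood at 2.37 to 3.48 in Pro and 2.59 to 3.23 in Ortho. Cebpb was at 6.12 to 10.8 and 6.27 to 7.15, with Pro replicate 1 the highest. Cebpd stood at 1.08 to 1.86 and 0.952 to 1.15. For these 4 genes Pro and Ortho overlapped. Cebpe stood at 3.11 to 3.75 in Pro and 2.55 to 2.97 in Ortho, with no overlap. Gfi1 stood at 0.698 to 1.196 in Pro, 0.776 to 0.976 in Poly and 0.446 to 0.718 in Ortho, and its Pro and Ortho libraries overlapped. Gfi1b stood at 9.72 to 12.8 in Pro and 0.589 to 0.875 in Ortho. The ratio depended on the list chosen, and each sum was weighted to its most abundant genes. In Pro replicate 1, S100a9 and S100a8 held 1928 and 1603 of the neutrophil sum of 8060 FPKM. Ly6c2 held 194 of 236 FPKM of the monocyte and macrophage markers, and Ighm 87.8 of 185 of the B cell markers. Prg2 held 509 of 863 FPKM of the basophil, mast cell and eosinophil markers. Against the summed monocyte and macrophage markers, the mean Ortho levels of the 6 were 0.650 to 0.962 times those of Pro, and against B cell markers 0.536 to 0.779 times. Against basophil, mast cell and eosinophil markers Spi1 stood at 1.24, Cebpa at 1.23, Cebpb at 1.07 and Cebpe at 1.02 times Pro, with Cebpd at 0.92 and Gfi1 at 0.848. These are ratios of levels with no test, and the part of leukocyte RNA in the members' values was not tested.

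**Figure D4:**
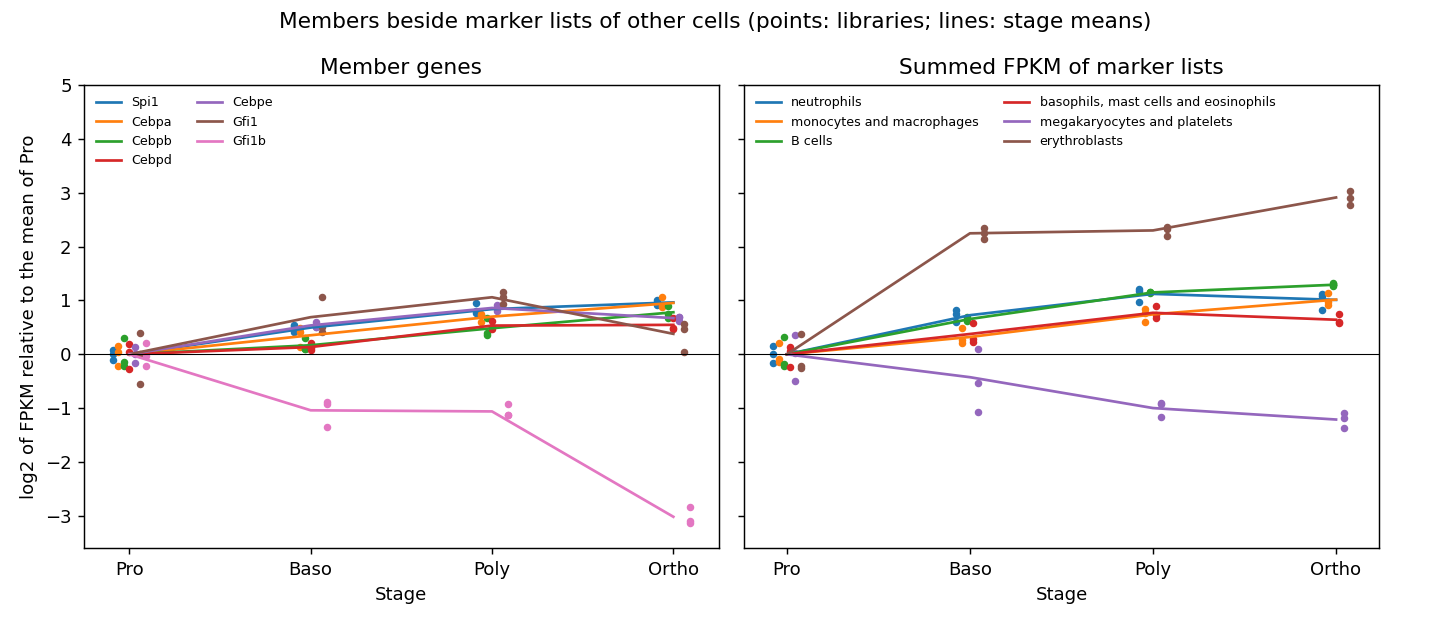
Log2 FPKM relative to the mean of Pro (vertical axis) for the 7 members (left) and for the summed FPKM of 6 marker lists (right), by stage. Points are libraries and lines are stage means. Neutrophil, monocyte, B cell and basophil sums are above Pro beside the 6 myeloid members, the erythroblast sum is farther above it and the megakaryocyte sum below.

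Relatives and partners of the members were examined by lists. Of the 5 PU.1 relatives and other C/EBP family genes, 4 were tested. In Ortho compared with Pro, Spib, a PU.1 relative of B cells and plasmacytoid dendritic cells, rose from 16.2 ± 4.69 to 40.3 ± 1.06 FPKM (SD, n = 3). Cebpz and Ddit3, which encodes the stress-induced factor CHOP, fell by log2 fold changes of -1.08 and -1.18. Cebpg was not past the test, with a sign that turned with the scaling, and Spic, the PU.1 relative of red pulp macrophages, stayed below 1 in every library. The family did not move as one. Of 14 other myeloid fate factors, 11 were higher in Ortho than in Pro by limma and none was lower, also at an unadjusted p under 0.05, with a median log2 fold change of 0.92. Irf8, which directs monocyte and dendritic fates, rose from 57.6 ± 12.1 to 126 ± 9.49 FPKM, and Klf4, a monocyte factor, from 16.4 ± 3.98 to 37.1 ± 2.32. Irf4 rose by a log2 fold change of 1.21, and Fos, an AP-1 subunit, by 0.92 (adjusted p = 0.00224).

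Among 14 receptor and effector genes that PU.1 and C/EBP factors regulate in myeloid cells, 11 were higher in Ortho than in Pro and none was lower, by limma with or without adjustment, with a median log2 fold change of 0.91. Under the 3 other scalings 9 to 11 of the myeloid factors, 11 to 13 of these genes and 12 to 15 of the neutrophil markers were higher, and none was lower. Of all genes tested, 14.7% were higher and 63.4% lower with equal library sums. The shares were 34.4% and 34.8% with hemoglobin genes left out, and 34.5% and 35.5% with median centring. Lyz2, the lysozyme of phagocytes, had a mean FPKM of 1129 in Pro and 2652 in Ortho (log2 fold change 1.23, adjusted p = 5.39e-07). Fcgr3, an Fc receptor, and Il6ra, the interleukin-6 receptor, had the largest increases, 1.31 and 1.25. Ncf1, a subunit of the phagocyte oxidase, rose by 0.82. Of the 7 erythroid factors set against PU.1, 5 were lower in Ortho than in Pro, beside 53.2% of all genes, and their median log2 fold change was -1.70. Klf1 and Ldb1 fell most, by log2 fold changes of -2.19 and -2.08, Nfe2 rose by 0.91 (adjusted p = 0.0444) and Lmo2 was at -0.14 and not past the test. With equal library sums Nfe2 was no longer past the test and Lmo2 was lower, at -0.51, whereas Lmo2 was at 0.35 with hemoglobin genes left out.

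Of 13 corepressor genes through which GFI1 and GFI1B act, 8 were lower in Ortho than in Pro and 1 was higher. Their median log2 fold change was -0.66, beside -0.42 for all genes, of which 53.2% were lower, so the share of lower genes was near that of all genes. With equal library sums 11 were lower and none higher, beside 63.4% and 14.7% of all genes. With hemoglobin genes left out 6 were lower and 4 higher, beside 34.8% and 34.4%. Hdac2 and Hdac1, the deacetylases of the complex, fell by log2 fold changes of -1.40 and -1.14. Gse1 fell by -1.32 (adjusted p = 7.15e-07). Phf21a, which encodes the histone reader BHC80, rose by 0.57, and with equal library sums was at 0.25 and not past the test. Kdm1a, which encodes LSD1, averaged 30.6 FPKM in Pro and 21.1, 18.3 and 15.3 FPKM in the later stages.

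**Figure D5:**
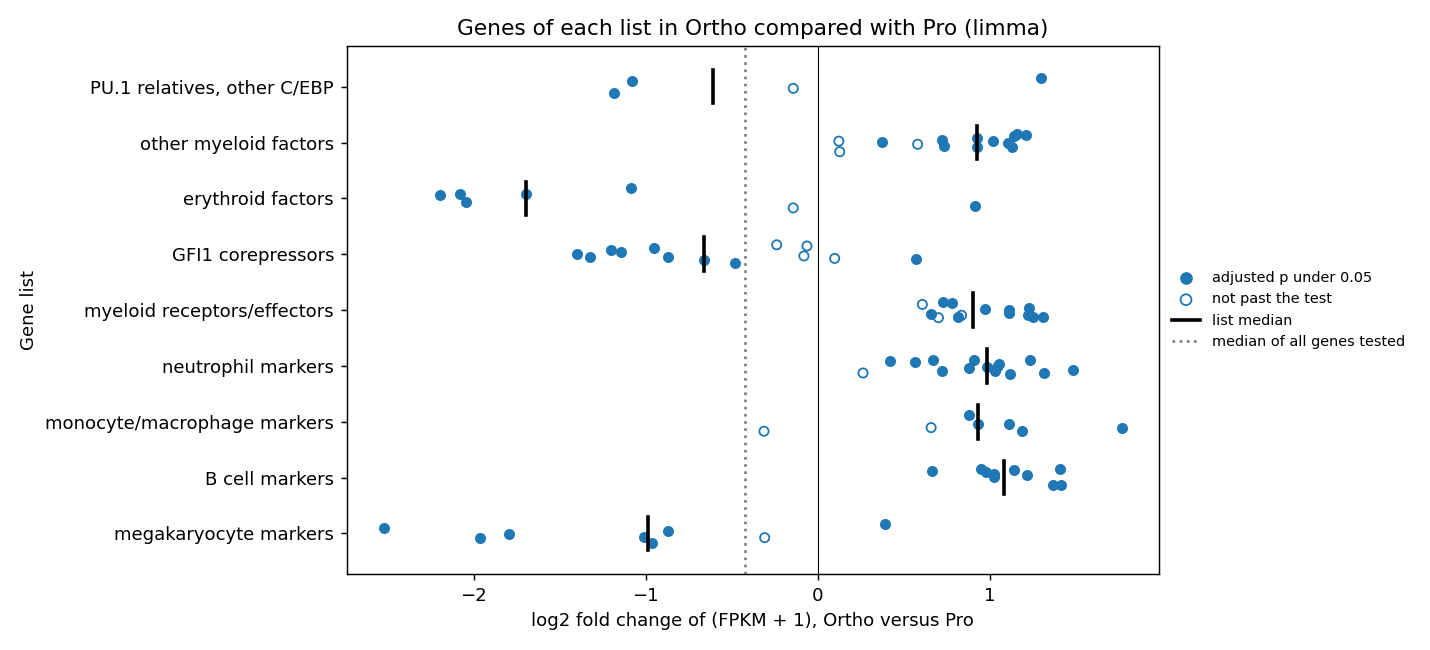
Log2 fold change of (FPKM + 1) in Ortho compared with Pro (horizontal axis) for the tested genes of 9 lists. Filled points passed the test, open points did not, bars are list medians and the dotted line is the median of all genes tested, -0.42. The myeloid factor, receptor and leukocyte marker lists have medians of 0.91 to 1.08, and the erythroid factors -1.70.

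The genes most like each member over the 12 libraries were found by Pearson's r of log2(FPKM + 1) among tested genes with a mean FPKM of at least 10. Libraries of a stage share that stage's level, so these values describe the stages. Spi1 was most like Ly6d (r = 0.992), Tyrobp, an adaptor of myeloid and NK cell receptors (0.989), and Padi2 (0.989). Cebpa was most like Sash3, Cbfb, which encodes the partner of RUNX factors, and Tifab (0.973 to 0.975). Cebpb was most like F10, Psap and Itgb7 (0.963 to 0.972), and Cebpd like Gm21188, Hk2 and Hcls1 (0.969 to 0.972). Cebpe was most like Adgrg3, a granulocyte receptor (0.987), Vat1 and Cd63 (0.98 each). Gfi1 had no close match, with r of 0.901 to Gm22133 and 0.892 to Ptgs1. Gfi1b was most like Seh1l, a nuclear pore gene, Prpf3, a splicing factor gene, and Eif1ad (0.992 to 0.993). Between the members, r was 0.924 for Spi1 and Cebpa, 0.8 for Cebpe and Gfi1, and -0.826 for Spi1 and Gfi1b.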

How the data were processed

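RNA was sequenced from 12 libraries, 3 for each of the 4 stages, assigned by their titles. The authors trimmed reads with Cutadapt and Trimmomatic, used HISAT2 for alignment to mm10 and featureCounts for counting, and deposited 1 FPKM value per gene and library. The tool for FPKM, the annotation and all versions are not given in the sources used here. The paper names KAPA libraries and the labels NEBNext Ultra libraries.

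The table held 29839 lines, with 1 repeated identifier removed. The tests used limma 3.58.1 under R 4.3.3, applied to log2(FPKM + 1), a pseudocount of 1, with a variance trend and all 12 libraries in 1 model, two-sided. Baso, Poly and Ortho were compared with Pro, Poly with Baso, and Ortho with Poly. The authors' DESeq2 needs counts and was not repeated. In 920 to 1384 genes with values under 0.05 FPKM in both libraries of a pair, at most 8.24% of log2 ratios fell in 1 bin of width 0.1, so whole fragments could not be recovered. The limma model and the permutation test were tested on simulated data. Exon overlaps came from GENCODE M21, and sequences were read with Python 3.11.15.

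The members and the 14 lists were chosen with earlier results of these data known. From each list the 2 most abundant genes and up to 2 with the largest increase and decrease in Ortho were eligible to be named. Kit, Ltf, Camp, Ngp, Lcn2, Kdm1a, Cebpg, Spic, Adgre1, Vcam1, C1qa and genes below 1 FPKM were named after their values were seen. Alternatives were other pseudocounts, no filter, 3 scalings, models of 2 stages, no variance trend, the replicate number as a block, and leaving out each library.

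Deviations from the stage means correlated between libraries of the same number at 0.156 to 0.319 among Baso, Poly and Ortho, which pairs these libraries by their values, as no label does. Between Pro and the others the correlations were 0.00524 to 0.0968.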

Additional observations from a re-analysis of the deposited data

How the results depend on the processing

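When single libraries were left out, the 7 members past the test in Poly compared with Pro stayed at 7, and the 6 in Ortho were 6 to 7. With equal library sums Cebpb lost its call in Poly and Cebpd in Ortho compared with Pro. Gfi1 gained a call in Ortho compared with Pro with hemoglobin genes left out or with median centring. In Baso compared with Pro the count of 5 fell to 3 with no filter, with equal library sums and with only the 2 stages in the model, was 7 with hemoglobin genes left out or with median centring, and was 3 to 5 without single libraries (3 without Baso replicate 2). Of all genes tested, 14.9% were higher and 42.1% lower in the main fit, and 8.89% and 51.3% with equal library sums. The shares were 27.0% and 24.4% with hemoglobin genes left out, and 30.5% and 23.5% with median centring. From Baso to Poly the count of 3 was 1 with median centring, 5 with a replicate block fitted to the 3 later stages, and 0 to 4 without single libraries (0 without Baso replicate 3 or Poly replicate 1, and 1 without any other Baso or Poly library). From Poly to Ortho the count of 2 was 1 with no filter, 4 with hemoglobin genes left out, 4 with median centring, 5 with that replicate block, and 1 to 4 without single libraries (1 without Pro or Baso replicate 3, any Poly library, or Ortho replicate 2 or 3, and 4 without Pro replicate 1). The number of all genes past the test from Baso to Poly, 1605, was 963 with no filter, 2863 with the block and 570 to 1985 without single libraries. The replicate block over all libraries changed the calls of Cebpb from Baso to Poly and from Poly to Ortho and no other call of the members.

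Signs changed for small differences only. With equal library sums, Cebpd was at -0.032 in Baso compared with Pro and at -0.17 in Ortho compared with Poly, and Spi1 at -0.061 in Ortho compared with Poly. Gfi1b from Baso to Poly was 0.022 with hemoglobin genes left out and -0.153 to 0.073 without single libraries, and Cebpd from Poly to Ortho was -0.054 to 0.0505. In all, 16 of 35 member values kept their direction and side of the threshold under every alternative. The 3 within-library ratios kept theirs with pseudocounts of 0.1 and 5 and without any single library, and the paired test of them was chosen after seeing the data. The depth of the libraries is unknown, so counting error is not given for any value. Causes of these changes were not tested.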

Other observations

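Further leukocyte lists were measured beside the members. Of 6 basophil, mast cell and eosinophil markers, 5 were higher in Ortho than in Pro, with sums of 863 to 1109 FPKM in Pro and 1509 to 1695 in Ortho. Prss34, a basophil protease, rose from a mean of 166 to 363 FPKM, and Cpa3, a mast cell protease, from 15.9 to 35.8. Of 3 T and NK cell markers tested, 2 were higher in Ortho, and Nkg7, a cytotoxic granule gene, had 23.6 FPKM in Pro and 35.1 in Ortho, not past the test with equal library sums. Of 5 dendritic cell markers, 4 were higher in Ortho. Siglech, of plasmacytoid dendritic cells, had 5.06 FPKM in Pro and 12.3 in Ortho. Zbtb46, a factor of classical dendritic cells, was the exception in that list and fell from 11.6 to 0.839 FPKM (-2.77 on the log2 scale, limma adjusted p = 5.4e-09).

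Of 5 genes listed for proerythroblasts and progenitors, 4 were higher in Ortho than in Pro and none was lower, by limma with or without adjustment. With equal library sums 3 were higher and Kit was lower, beside 14.7% of all genes higher and 63.4% lower. Gata2, a progenitor factor, rose by 1.02 on the log2 scale (limma adjusted p = 0.000727), Cd34 by 0.89 and Cd44 by 0.72. The value of Cd44 is for its transcript, whereas the sort used staining of the surface protein and took Pro as CD44 high. Myb had the highest level of that list, with 57.1 FPKM in Pro and 73.9 in Ortho, and was not past the test with equal library sums.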
